A study of Rattus norvegicus with 17 samples.

Results

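Axon guidance ligands and receptors were read in rat cortical cultures as all genes whose symbol belongs to the semaphorins of classes 3 to 7, the neuropilins, the plexins, the ephrins, the Eph receptors, the Slits, the Robos, the netrins and netrin-Gs, or the Dcc and Unc5 receptors. The rule reads symbols and uses no measured value. It found 58 of the 11247 genes in the table: 7 class 3 semaphorins, 12 semaphorins of classes 4 to 7, 2 neuropilins, 5 plexins, 7 ephrins, 10 Eph receptors, 3 Slits, 2 Robos, 2 netrins, 2 netrin-Gs, 5 Dcc and Unc5 receptors, and Unc50. Unc50 matched the pattern by its spelling; it encodes a membrane protein of the Golgi and the nuclear envelope and is no netrin receptor. All 58 passed the filter on low values, and the lowest mean of a member over the libraries was 11. The lowest mean of any gene in the table was 3.65. Some families are incomplete in it, so counts such as 2 Robos or 5 plexins cover only the genes present.

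The cultures came from rat cerebral cortex and are labelled as primary glutamatergic neurons together with astrocytes. They carried an empty vector, called vector here, or the A53T variant of α-synuclein, a protein of the synapse whose aggregates mark Parkinson's disease, called A53T here. Each genotype received the solvent DMSO, 0.2 µM FK506, which the design text describes as below saturation, or 2.0 µM FK506, described as saturating; FK506 inhibits the calcium-activated phosphatase calcineurin. The 6 groups are therefore vector in DMSO, vector at 0.2 µM, vector at 2.0 µM, A53T in DMSO, A53T at 0.2 µM and A53T at 2.0 µM, with 3 libraries each except A53T in DMSO, which has 2. Both genotypes were reached by infection, so the controls had also been infected; the promoter that drives the transgene and the length of treatment are not given in the sources used here. In these bulk samples, fewer cells of a type and less RNA per cell cannot be told apart.

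Guidance cues steer growing axons by attracting or repelling the growth cone, and many of the same molecules act later at synapses. Class 3 semaphorins are secreted and bind neuropilins, which signal through plexins, whereas most other semaphorins are held in the membrane and bind plexins directly. Ephrins are membrane-bound ligands of the Eph receptor tyrosine kinases, Slits are secreted ligands of Robo receptors, and netrins attract axons through Dcc and repel them through Unc5 receptors.

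The promoters of the 4 members whose response to 2.0 µM FK506 differed between the genotypes are shown because these members are described in detail below. Each holds 250 bases before and 50 bases after the gene's start, from RefSeq on the rat build GRCr8, which is later than the authors' build. They were searched on both strands for GGAAA, the core that the calcineurin-regulated NFAT factors bind, for the cyclic AMP response element TGACGTCA and for the AP-1 element TGACTCA, and no matches overlap in the windows printed. Capitals mark a match. Dcc lies at chr18:68247625-68247924 on the minus strand, Epha2 at chr5:158888379-158888678 on the plus strand, Ephb6 at chr4:71458382-71458681 on the plus strand and Sema4b at chr1:143558547-143558846 on the plus strand.
Dcc: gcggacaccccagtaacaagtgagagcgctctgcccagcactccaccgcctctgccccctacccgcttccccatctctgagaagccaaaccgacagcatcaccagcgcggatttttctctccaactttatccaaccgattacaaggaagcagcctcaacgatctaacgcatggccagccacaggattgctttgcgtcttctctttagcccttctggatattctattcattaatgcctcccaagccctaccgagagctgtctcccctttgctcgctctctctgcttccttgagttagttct
Epha2: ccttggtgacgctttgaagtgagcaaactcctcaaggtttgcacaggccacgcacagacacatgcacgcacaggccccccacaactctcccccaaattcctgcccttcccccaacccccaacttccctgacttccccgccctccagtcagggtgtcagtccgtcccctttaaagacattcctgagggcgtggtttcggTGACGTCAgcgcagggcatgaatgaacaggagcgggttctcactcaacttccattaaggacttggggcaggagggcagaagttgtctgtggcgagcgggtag
Ephb6: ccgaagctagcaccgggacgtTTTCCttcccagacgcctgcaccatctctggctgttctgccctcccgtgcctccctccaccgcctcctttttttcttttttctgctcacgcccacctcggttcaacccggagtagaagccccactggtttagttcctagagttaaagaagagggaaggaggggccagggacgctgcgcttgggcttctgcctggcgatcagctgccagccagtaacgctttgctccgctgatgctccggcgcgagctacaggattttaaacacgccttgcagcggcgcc
Sema4b: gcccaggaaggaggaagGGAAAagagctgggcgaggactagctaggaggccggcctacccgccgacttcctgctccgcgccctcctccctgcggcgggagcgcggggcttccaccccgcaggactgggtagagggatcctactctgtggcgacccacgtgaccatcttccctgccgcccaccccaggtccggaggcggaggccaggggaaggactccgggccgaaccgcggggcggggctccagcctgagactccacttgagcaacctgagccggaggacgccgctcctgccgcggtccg

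In these windows Epha2 held TGACGTCA at bases 199 to 206, Ephb6 held TTTCC, the reverse complement of GGAAA, at bases 22 to 26, Sema4b held GGAAA at bases 18 to 22, and the letters searched were not in the window of Dcc. A promoter entry matched 45 of the 58 members, with 46 windows in all because Robo1 has 2 entries. GGAAA was in 23 of these 46 windows (50%), beside 62.7% of all 33469 rat promoters of that length. TGACGTCA was in 1 of the 46 (2.17%, beside 1.83% of all) and TGACTCA in 1 (2.17%, beside 4.63%). The median number of CpG dinucleotides per window was 18 in members and 7 in all promoters. These matches describe letters and not bound sites.

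Before the members are described, the libraries need a word. Normalized counts summed to between 15091428 and 18335540 per library, and the read depth behind them is unknown. A53T at 0.2 µM has 3 libraries whose pairwise differences were 0.995 to 1.05 times what Poisson sampling gives, whereas the 13 pairs within the other groups reached 1.48 to 14.4 times. They differed by no more than sampling noise and entered as 1 sample by their mean. A further 3 libraries stood apart from the others of their group: vector at 0.2 µM replicate 1, vector at 2.0 µM replicate 2 and A53T at 2.0 µM replicate 1 had the largest median absolute log2 difference from the other libraries of their group over all genes (0.208, 0.183 and 0.261), and A53T at 2.0 µM replicate 3 had 0.184. They were also lowest of their group for 44, 38 and 36 of the 58 members. The main counts are also given without them, and those counts are not independent of the members' values. Shares of all genes called are given for the main fit only. A changed count under another fit is therefore not read as particular to the members. Markers of the labelled cells were present: 11 of 11 glutamatergic genes and 14 of 15 astrocyte genes were measured, none at 0 in any library, while 1 of 12 microglial, 1 of 8 endothelial, 8 of 11 oligodendrocyte lineage and 8 of 12 fibroblast genes were measured. GABAergic genes, of a neuron type that the label does not name, were also measured, 10 of 12.

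The summed normalized count of the 58 members ran from 36422 to 37666 in vector in DMSO, from 35870 to 41257 in vector at 0.2 µM and from 31860 to 34354 in vector at 2.0 µM. It ran from 36485 to 36779 in A53T in DMSO, from 55650 to 56302 in A53T at 0.2 µM and from 29668 to 31808 in A53T at 2.0 µM. A53T at 0.2 µM therefore had the highest sums, A53T at 2.0 µM the lowest, and the DMSO groups of the genotypes overlapped. By group means, A53T at 0.2 µM was the highest of the 6 groups for 36 members and A53T at 2.0 µM the lowest for 32. This order was not counted over all genes, so it is not read as particular to the members.

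**Figure D1:**
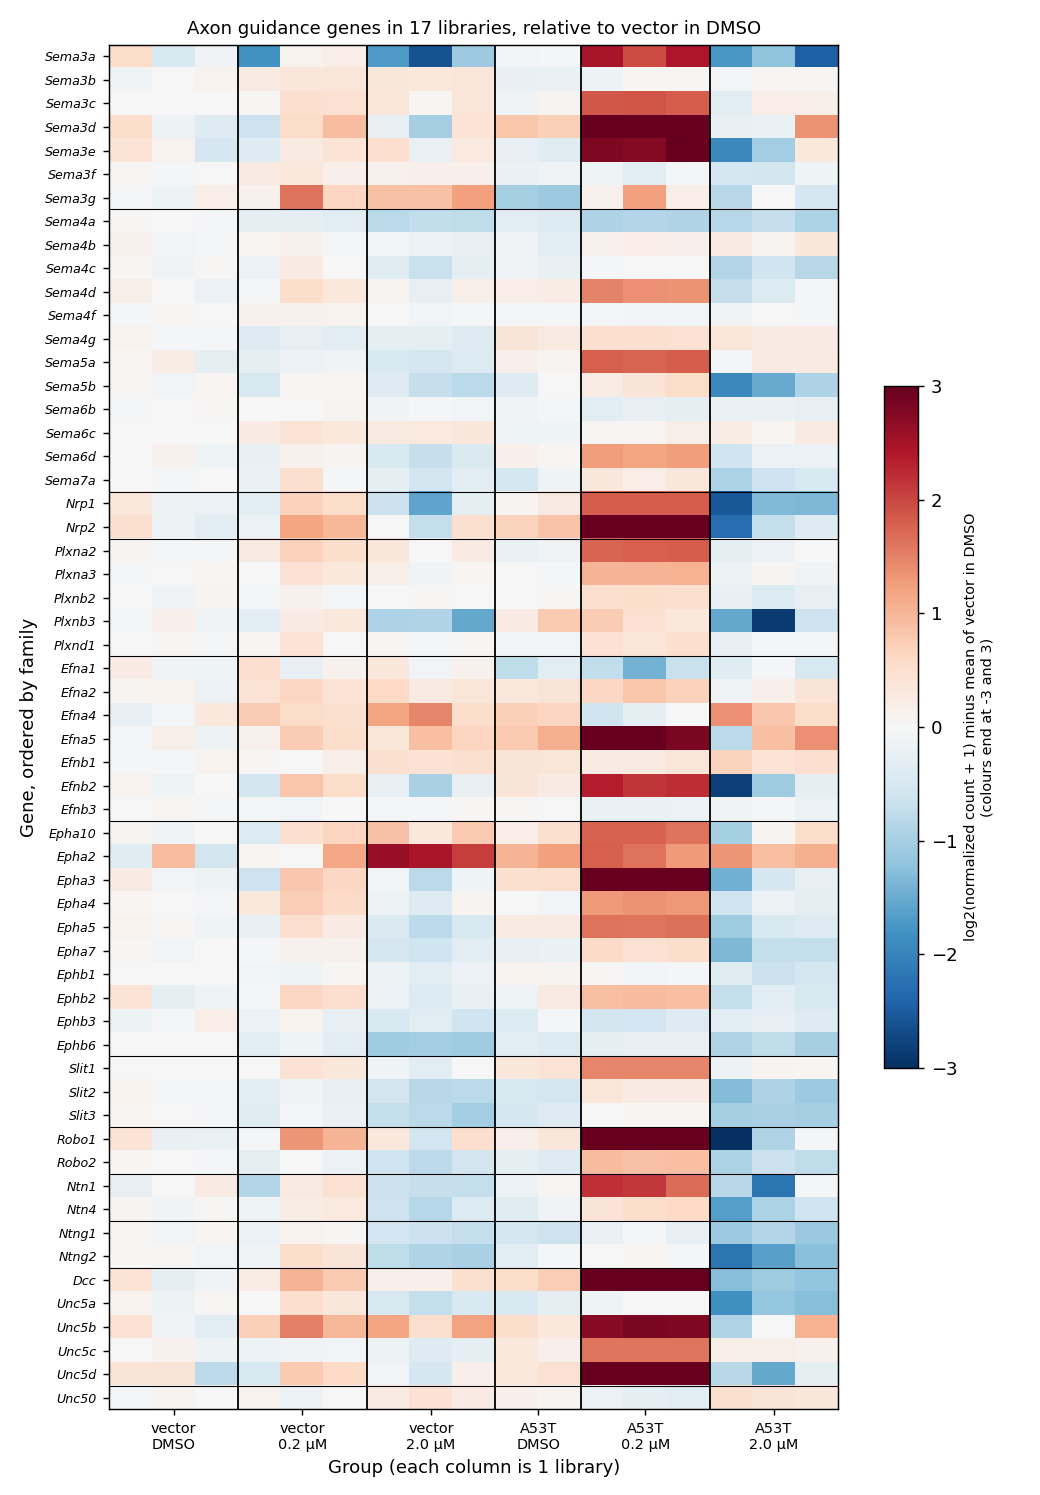
Colours give log2(normalized count + 1) of each of the 58 members (rows, by family) in each of the 17 libraries (columns, by group) minus the mean of vector in DMSO, with the scale ending at -3 and 3. Most rows are reddest in A53T at 0.2 µM, which has the highest group mean for 36 of 58 members, and many are bluest in A53T at 2.0 µM, which has the lowest for 32. The order of the groups was not counted over all genes.

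At 2.0 µM FK506 in vector, members fell more often than they rose: 20 fell and 8 rose against DMSO (limma, adjusted p under 0.05 over all genes), so 28 of 58 passed the test, beside 47.2% of all genes. Over all genes 23.4% rose and 23.8% fell. The share of members called was thus near the background, with fewer rises and more falls than over all genes. The median log2 fold change was -0.155 over members and 0.00 over all genes. The groups did not overlap for 40 members, beside 60.5% of all genes. Leaving out vector in DMSO replicate 1 left 18 called members, and leaving out the 3 libraries that stood apart gave 34, of which 22 were lower. Over the same groups the summed normalized count of the 11 glutamatergic markers ran from 23470 to 24960 in DMSO and from 14350 to 16060 at 2.0 µM, and that of the 14 astrocyte markers from 113700 to 115900 and from 50870 to 52160. Their part in the result was not tested.

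Among secreted cues in vector, Sema3a, the repellent that binds neuropilin-1 and plexin-A receptors, gave the largest fall. Its normalized counts were 49.6, 24.5 and 31.4 in DMSO and 9.72, 4.70 and 15.2 at 2.0 µM. Every treated library was below every control, at a level of few counts. The log2 fold change was -1.80 ± 0.54 (SE; limma adjusted p = 0.015), and it missed the threshold without vector in DMSO replicate 1 (adjusted p = 0.0636) or without vector at 2.0 µM replicate 2 (adjusted p = 0.0651). Sema3g, a secreted ligand of neuropilin-2, read 7.78, 7.15 and 9.33 in DMSO and 15.6, 15.7 and 20.2 at 2.0 µM. Its treated libraries were all higher, again at low counts, with a log2 fold change of 0.998 ± 0.36 (adjusted p = 0.0369). Without any 1 of these 6 libraries that call was lost (adjusted p from 0.0538 to 0.112). Sema3b, the other class 3 member that passed the test, rose by 0.34 ± 0.08.

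Of the Slits and their receptors, 2 of 3 Slits and 1 of 2 Robos fell in vector. Slit3, a secreted Robo ligand, read 784, 749 and 722 in vector in DMSO and 455, 427 and 364 at 2.0 µM. No treated library came near a control, and the log2 fold change was -0.86 ± 0.09 (adjusted p = 1.14e-05). Slit2, its close relative, read 623, 554 and 555 in DMSO and 391, 323 and 328 at 2.0 µM. These groups were also separate, with a log2 fold change of -0.74 ± 0.11 (adjusted p = 1.06e-04). Robo2, a Slit receptor, fell by 0.64 ± 0.10 on the log2 scale (adjusted p = 1.47e-04). Slit1 and Robo1 did not pass the test, with log2 fold changes of -0.15 ± 0.11 and 0.08 ± 0.60.

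Both netrin-Gs, lipid-anchored relatives of netrins that act at synapses, fell in vector. Ntng2 read 415, 411 and 381 in DMSO and 235, 213 and 205 at 2.0 µM. Its lowest control exceeded its highest treated library by a wide margin, and the log2 fold change was -0.88 ± 0.21 (adjusted p = 0.00371). Ntng1 changed by -0.65 ± 0.10 (adjusted p = 2.12e-04). The secreted Ntn4 fell by 0.63 ± 0.22 on the log2 scale, while Ntn1, the ligand of Dcc, was at -0.69 ± 0.47 and did not pass the test. Of the netrin receptors, Unc5a and Unc5c fell and the other 3 did not pass.

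Of the 7 ephrins, 3 rose in vector, 0 fell (0 also at an unadjusted p under 0.05, limma) and 4 did not pass the test. Of the 10 Eph receptors, 5 fell, 1 rose and 4 did not pass; the families were not tested against each other. Ephb6, an Eph receptor without kinase activity, had the smallest p of the falls. It read 1167, 1185 and 1177 in DMSO and 560, 567 and 565 at 2.0 µM. The replicates lay close together and the groups far apart, with a log2 fold change of -1.06 ± 0.07 (adjusted p = 3.17e-07). Epha2, a receptor of A-type ephrins, was the only Eph receptor that rose, with 5.65, 15.3 and 4.84 in DMSO and 51.8, 45.9 and 35.4 at 2.0 µM. All treated libraries exceeded all controls, though 1 control stood well above the other 2, and the log2 fold change was 2.38 ± 0.40 (adjusted p = 3.24e-04). The fallers beside Ephb6 were Epha5, Epha7, Ephb1 and Ephb3.

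Among the ephrins, Efna4, a lipid-anchored ligand, read 17.8, 20.4 and 26.7 in DMSO and 49.8, 60.6 and 31.4 at 2.0 µM. The third treated library lay close above the highest control, and the log2 fold change was 1.06 ± 0.27 (adjusted p = 0.00587). Efnb1, a transmembrane ligand, read 874, 859 and 963 in DMSO and 1254, 1212 and 1260 at 2.0 µM. Its groups were separate and tight, with a log2 fold change of 0.47 ± 0.07 (adjusted p = 1.97e-04). Efna2 rose by 0.41 ± 0.15.

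Of the 12 membrane-bound semaphorins, 6 fell in vector, 1 rose and 5 did not pass the test, with a median log2 fold change of -0.34. Sema4a, a ligand of plexins, changed by -0.78 ± 0.07 (adjusted p = 1.66e-06). Sema6c, a class 6 ligand of plexin-A receptors, rose by 0.30 ± 0.07. None of the 5 plexins or 2 neuropilins passed the test in vector at 2.0 µM (limma); their log2 fold changes ran from -1.12 to 0.19, and 1 of them, Plxnb3, had an unadjusted p under 0.05 (0.0312).

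**Figure D2:**
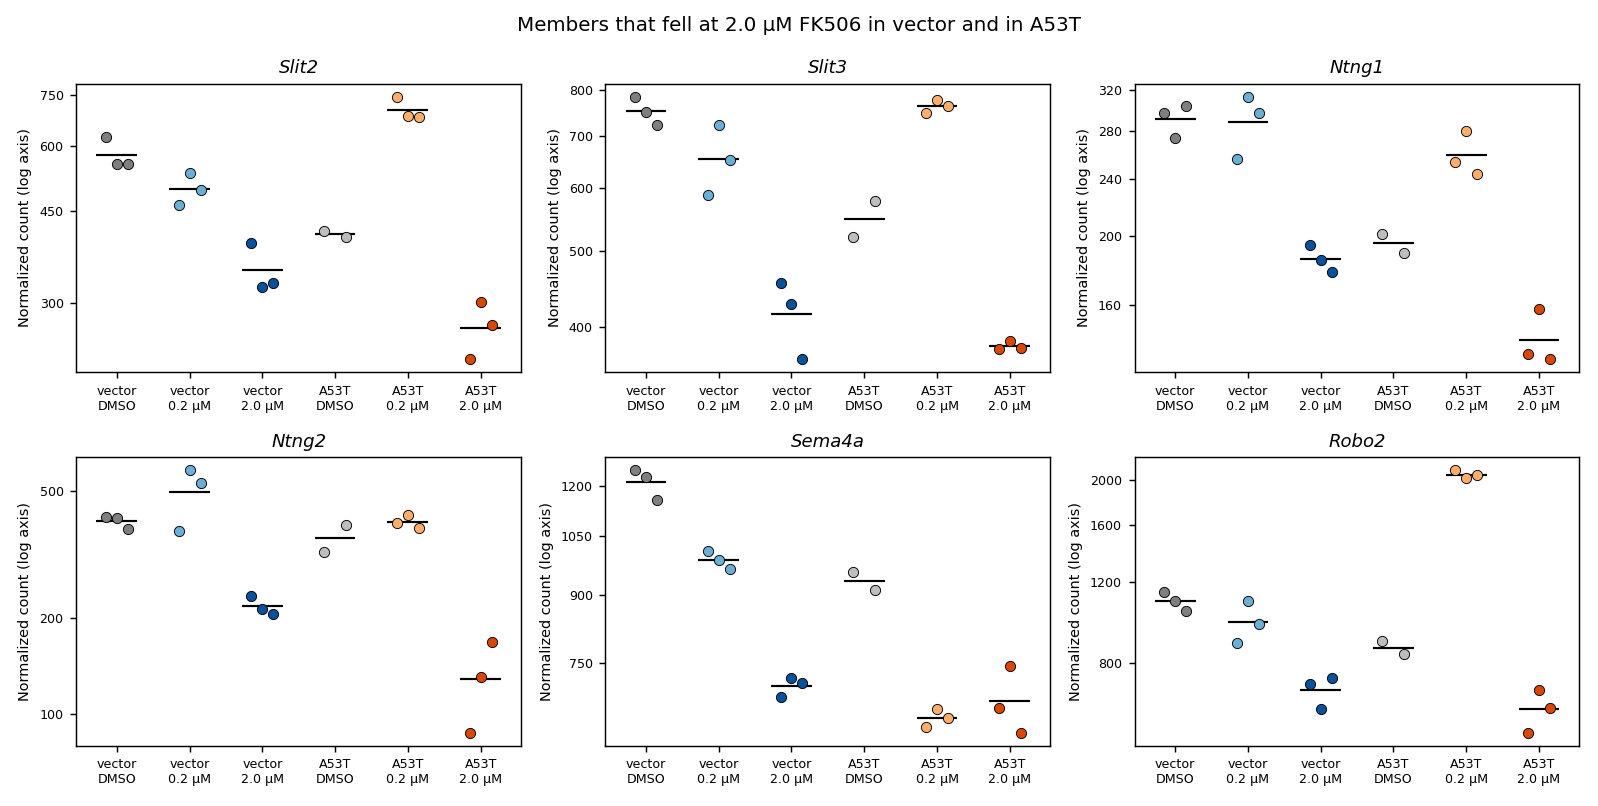
Normalized counts (log axis) of 6 members that fell at 2.0 µM in both genotypes, with 1 point per library, a bar at the mean and the 6 groups along the horizontal axis. In each panel the vector and A53T points at 2.0 µM lie below the DMSO points of the same genotype, as for Ntng2 at 205 to 235 in vector at 2.0 µM against 381 to 415 in DMSO.

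In A53T, 2.0 µM FK506 lowered 27 members and raised 3 against A53T in DMSO (limma), beside 17.9% of all genes lowered and 19.7% raised. In all, 30 of 58 members passed the test (51.7%), beside 37.6% of all genes. The median log2 fold change was -0.443 over members and 0.01 over all genes, and groups did not overlap for 37 members, beside 64.5% of all genes. The controls are 2 libraries, and the count rested on them: 15 members were called without A53T in DMSO replicate 1 and 13 without its unnumbered library. Without the 3 libraries that stood apart 33 members were called, of which 29 were lower. With only the compared groups in the fit, 14 were called. Glutamatergic markers summed to 20540 to 21030 in A53T in DMSO and 10660 to 13830 at 2.0 µM, and astrocyte markers to 92400 to 96550 and 61410 to 64430, and their part in the result was not tested.

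The largest falls in A53T were in receptors. Plxnb3, a plexin that binds Sema5a, read 16.4 and 24.4 in DMSO and 4.12, 1.001 and 8.51 at 2.0 µM. The groups were separate at very low counts, with a log2 fold change of -2.19 ± 0.52 (adjusted p = 0.00646). Nrp1, the neuropilin that binds Sema3a, read 206 and 232 in DMSO and 32.3, 77.0 and 75.3 at 2.0 µM. All treated libraries were far below both controls, replicate 1 most of all, and the log2 fold change was -1.91 ± 0.43 (adjusted p = 0.00531). Nrp2, the neuropilin that binds Sema3f, read 218 and 249 in DMSO and 27.2, 83.0 and 104 at 2.0 µM. The spread among treated libraries was wide but did not reach the controls, and the log2 fold change was -1.90 ± 0.54 (adjusted p = 0.0165).

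These 3 calls depended on the control libraries. Without the unnumbered library of A53T in DMSO, the limma adjusted p was 0.0728 for Plxnb3, 0.0505 for Nrp1 and 0.103 for Nrp2, and without its replicate 1 it was 0.0706 for Nrp2. With only the compared groups in the fit it was 0.071 for Plxnb3 and 0.0601 for Nrp2. Dcc, the attractive netrin receptor, kept its call with each library left out in turn. It read 44.5 and 51.1 in A53T in DMSO and 11.9, 14.0 and 12.8 at 2.0 µM. The groups were separate and tight, with a log2 fold change of -1.81 ± 0.26 (adjusted p = 3.30e-04). Of the Unc5 receptors, Unc5a fell by 1.06 ± 0.19 and Unc5d by 1.26 ± 0.46 on the log2 scale, while Unc5b and Unc5c did not pass the test.

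Among ligands in A53T, all 3 Slits and both netrin-Gs fell. Ntng2 fell by 1.51 ± 0.23 on the log2 scale, Ntng1 by 0.45 ± 0.11, Slit2 by 0.60 ± 0.12, Slit3 by 0.53 ± 0.11 and Slit1 by 0.38 ± 0.12. Sema3a had a log2 fold change of -1.75 ± 0.60 (adjusted p = 0.0384) and Efnb2, a transmembrane ephrin, one of -1.69 ± 0.58 (adjusted p = 0.0362). Of the Robos, Robo2 fell and Robo1 did not pass the test, and of the 5 plexins 2 fell and 3 did not pass. Sema3a, its receptor Nrp1, and the Slits with Robo2 were thus lower in this comparison, with the limits given above for Nrp1. For Sema3a, the Slits and Robo2 in A53T, the calls were not followed with single libraries left out.

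The 3 members that rose in A53T at 2.0 µM did so by small amounts. Sema4b, a membrane-bound semaphorin, read 235 and 201 in DMSO and 306, 268 and 322 at 2.0 µM. Every treated library was above both controls, with a log2 fold change of 0.45 ± 0.12 (adjusted p = 0.00981). Sema6c read 358 and 355 in DMSO and 456, 407 and 468 at 2.0 µM, and Unc50 read 1087 and 1026 in DMSO and 1358, 1281 and 1235 at 2.0 µM. Both were separate from their controls, with log2 fold changes of 0.31 ± 0.08 and 0.29 ± 0.09. Without the unnumbered control library the adjusted p was 0.122 for Sema4b, 0.0669 for Sema6c and 0.154 for Unc50; without control replicate 1 it was 0.0557 for Sema6c and 0.0642 for Unc50, and without A53T at 2.0 µM replicate 1 it was 0.0583 for Unc50. With only the compared groups in the fit it was 0.0768, 0.0984 and 0.0656 for Sema4b, Sema6c and Unc50.

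The falls at 2.0 µM shared members between the genotypes, whose libraries are separate. Of the 20 members that fell in vector and the 27 that fell in A53T, 16 fell in both, which is 80.0% of the first list and 59.3% of the second. Over all genes, 1185 fell in both, or 44.3% of the vector list and 58.7% of the A53T list. The 16 were Sema3a, Sema4a, Sema4c, Sema5b, Sema6d, Slit2, Slit3, Robo2, Epha5, Epha7, Ephb1, Ephb6, Ntn4, Ntng1, Ntng2 and Unc5a. Sema6c and Unc50 rose in both, and no member rose in one and fell in the other. Across the 58 members Pearson's r between the log2 fold changes was 0.505, and across all genes 0.481; members share libraries within each genotype and are not independent points.

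**Figure D3:**
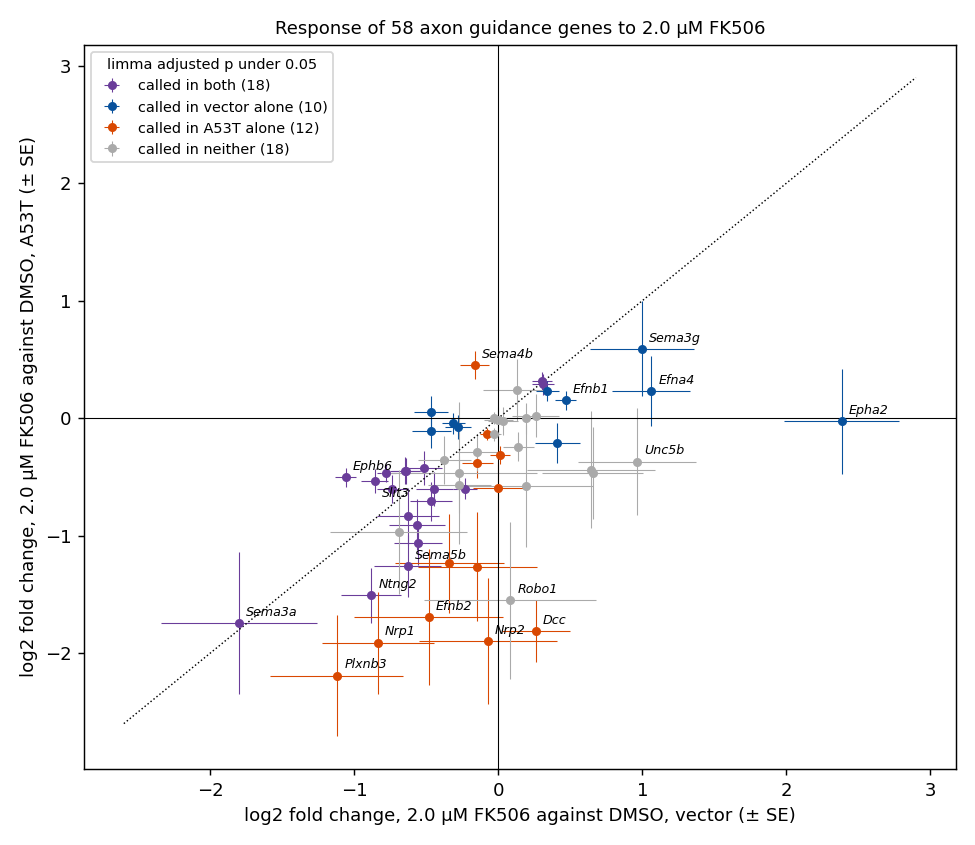
Each point is 1 of the 58 members, with its log2 fold change at 2.0 µM FK506 against DMSO in vector (horizontal) and in A53T (vertical), bars of 1 standard error, colours for the limma call and a dotted line of equal change. Dcc and Epha2 lie far below the line, at -1.81 and -0.03 in A53T against 0.26 and 2.38 in vector.

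The response to 2.0 µM FK506 differed between genotypes for 4 members by the interaction term of the same fit (limma), 2 with a higher and 2 with a lower change in A53T. That is 6.9% of members, beside 14.6% of all genes, 8.14% higher and 6.45% lower. The median interaction was -0.238 over members and 0.00 over all genes. The count was 2 without the unnumbered library of A53T in DMSO, 8 without A53T at 2.0 µM replicate 1, 13 without its replicate 3, and 20 without the 3 libraries that stood apart (5 higher and 15 lower). With quantile normalization it was 7, and with all 17 libraries as separate samples 9.

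Dcc gave the interaction with the smallest p. In vector it read 41.0, 24.5 and 28.1 in DMSO and 34.1, 34.0 and 42.5 at 2.0 µM, groups that overlap. In A53T its treated libraries, at 11.9 to 14.0, were below every other library of the series. The log2 fold change was 0.26 ± 0.23 in vector and -1.81 ± 0.26 in A53T, and the difference was -2.07 ± 0.35 (adjusted p = 0.00291). Epha2 read 16.3 and 19.2 in A53T in DMSO and 20.4, 15.01 and 16.97 at 2.0 µM, groups that overlap, whereas its vector groups were separate. Its log2 fold change was -0.03 ± 0.44 in A53T and 2.38 ± 0.40 in vector, a difference of -2.41 ± 0.60 (adjusted p = 0.0196). In DMSO both genes read higher in every A53T library than in vector, by 0.63 ± 0.26 for Dcc and 1.12 ± 0.44 for Epha2. Neither of these differences passed the test (limma adjusted p = 0.132 and 0.115), and the interaction includes them.

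Ephb6 fell in both genotypes, and by less in A53T. It read 922 and 880 in A53T in DMSO and 631, 690 and 589 at 2.0 µM, with no overlap. The log2 fold change was -0.50 ± 0.08 in A53T and -1.06 ± 0.07 in vector, a difference of 0.56 ± 0.11 (adjusted p = 0.00636). A53T in DMSO was already below vector in DMSO, and at 2.0 µM the genotypes differed by 0.17 ± 0.07 (adjusted p = 0.114). Sema4b read 277, 239 and 245 in vector in DMSO and 237, 226 and 215 at 2.0 µM, with every treated library lower, and it rose in A53T. Its log2 fold change was -0.16 ± 0.10 in vector, which did not pass the test, and 0.45 ± 0.12 in A53T, a difference of 0.62 ± 0.15 (adjusted p = 0.0208). The Epha2 interaction missed the threshold without vector at 2.0 µM replicate 1 (adjusted p = 0.052), A53T in DMSO replicate 1 (0.062) or its unnumbered library (0.0898), and that of Sema4b without vector at 2.0 µM replicate 3 (0.0539) or the unnumbered library (0.121).

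**Figure D4:**
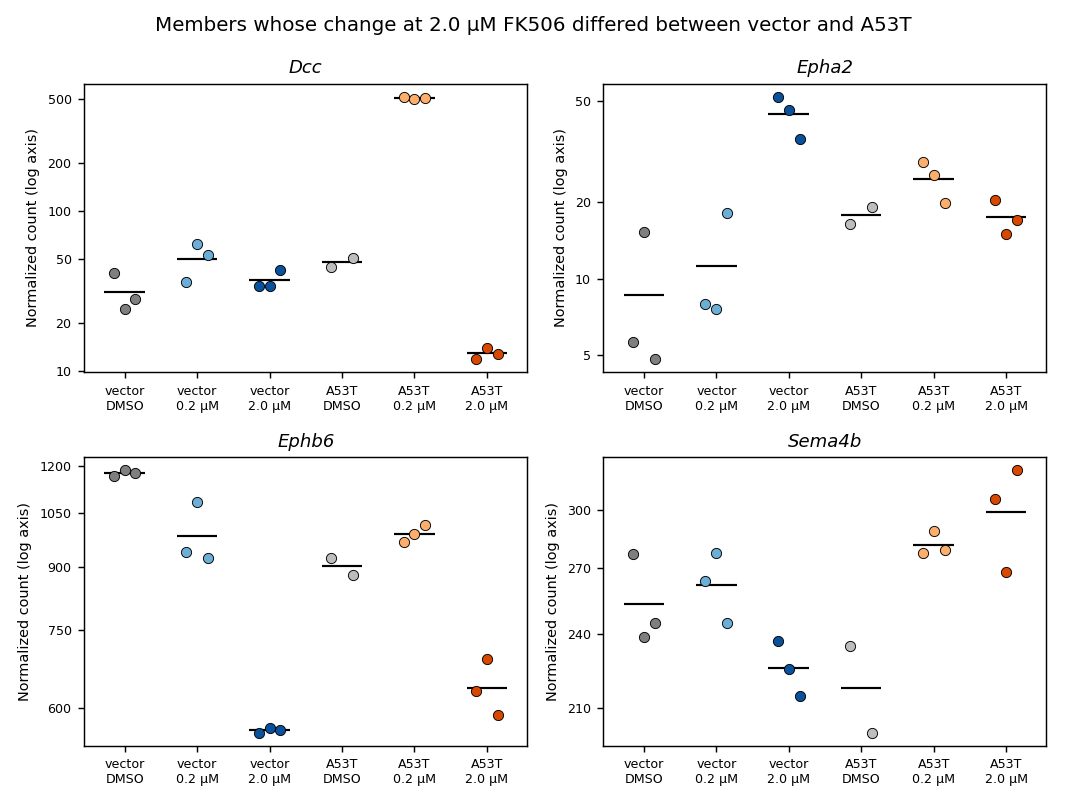
Normalized counts (log axis) of Dcc, Epha2, Ephb6 and Sema4b in the 6 groups, with 1 point per library and a bar at the mean. Dcc at 2.0 µM is at 34.0 to 42.5 in vector and 11.9 to 14.0 in A53T, and Epha2 at 35.4 to 51.8 in vector and 15.01 to 20.4 in A53T.

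Against each other at 2.0 µM, the genotypes differed for 17 members (limma), 4 higher and 13 lower in A53T, beside 19.6% of all genes, 9.88% higher and 9.7% lower. The median log2 difference was -0.29 over members and 0.00 over all genes, and groups did not overlap for 20 members, beside 33% of all genes. The count was 10 without vector at 2.0 µM replicate 1, 10 without its replicate 3, 7 with only these groups in the fit, and 25 without the 3 libraries that stood apart. Sema5a, a membrane-bound semaphorin with thrombospondin repeats, read 300, 293 and 316 in vector and 412, 501 and 507 in A53T. Sema4g, a class 4 semaphorin, read 286, 281 and 260 in vector and 443, 405 and 402 in A53T. Both were higher in every A53T library, by 0.64 ± 0.12 and 0.60 ± 0.08 on the log2 scale.

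On the lower side, Sema3g read 15.6, 15.7 and 20.2 in vector at 2.0 µM and 4.09, 8.004 and 5.35 in A53T at 2.0 µM, with no overlap. Its log2 difference was -1.45 ± 0.36 (adjusted p = 0.0155), and 0.0596 without vector at 2.0 µM replicate 3. Dcc differed by -1.44 ± 0.23 (adjusted p = 0.0014). Both netrin-Gs, Unc5a, Sema5b, Slit2, Epha2, Epha7, Ephb1, Sema3b, Sema3f and Plxnb2 were also lower in A53T, while Sema4b and Unc5c were higher.

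At 0.2 µM FK506 in vector, 5 members rose and 3 fell against DMSO (limma), beside 7.7% of all genes raised and 10.6% lowered, so 8 of 58 passed beside 18.3% of all genes. The median log2 fold change was 0.145 over members and 0.00 over all genes, and groups did not overlap for 15 members, beside 38.7%. Without the 3 libraries that stood apart 26 members were called; since vector at 0.2 µM replicate 1 was the lowest of its group for 44 members, leaving it out raises the group's level for these members by construction. The count was 5, 4 and 4 without replicates 1, 2 and 3 of vector in DMSO, and 4 and 2 without replicates 2 and 3 of vector at 0.2 µM.

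Epha4, a receptor that binds ephrins of both types, read 480, 464 and 444 in DMSO and 578, 769 and 685 at 0.2 µM. Plxna2, a receptor for class 3 and class 6 semaphorins, read 1050, 970 and 947 in DMSO and 1199, 1601 and 1425 at 0.2 µM. In both genes all treated libraries were higher, with replicate 1 the lowest of them, and the log2 fold changes were 0.54 ± 0.14 and 0.50 ± 0.12 (adjusted p = 0.0186 and 0.0131). Efna2, a lipid-anchored ephrin, read 64.0, 65.2 and 53.5 in DMSO and 81.4, 93.2 and 81.6 at 0.2 µM. Sema6c read 389, 390 and 393 in DMSO and 466, 516 and 488 at 0.2 µM, where it stood about as high as at 2.0 µM. Both sets were separate, with log2 fold changes of 0.48 ± 0.15 (adjusted p = 0.0478) and 0.32 ± 0.07 (adjusted p = 0.00871).

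Of the members that fell at 0.2 µM, Sema4a read 1251, 1228 and 1157 in DMSO, 1010, 985 and 963 at 0.2 µM and 687, 721 and 711 at 2.0 µM. The 3 groups of this gene did not overlap and stepped down with dose, with log2 fold changes of -0.30 ± 0.07 at 0.2 µM and -0.78 ± 0.07 at 2.0 µM. Ephb6 read 939, 1083 and 922 at 0.2 µM, between its DMSO and 2.0 µM libraries, at -0.27 ± 0.07. Sema4g read 365, 332 and 329 in DMSO and 261, 286 and 272 at 0.2 µM, lower throughout, at -0.32 ± 0.08 and at -0.31 ± 0.08 at 2.0 µM. Leaving out single libraries removed the calls of Efna2 in 6 of 6 cases, Ephb6 in 5, Epha4 in 4, Plxna2 in 3 and Sema4g in 2, and those of Sema4a and Sema6c in 0. Efna2 also missed the threshold with quantile normalization (adjusted p = 0.07) and with only the compared groups in the fit (0.0658).

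Between 2.0 and 0.2 µM in vector, 18 members were lower and 3 higher at the upper dose (limma), beside 15.7% and 18% of all genes, or 21 of 58 called beside 33.7%. The median log2 difference was -0.385 over members and -0.01 over all genes, and groups did not overlap for 27 members, beside 45.2%. The count was 13 without vector at 0.2 µM replicate 2 and 33 without the 3 libraries that stood apart. Ntng2 read 376, 581 and 529 at 0.2 µM, all above its 205 to 235 at 2.0 µM, a log2 difference of -1.16 ± 0.21 (adjusted p = 0.00117). Unc5a, a repulsive netrin receptor, read 1085, 1534 and 1378 at 0.2 µM and 771, 657 and 786 at 2.0 µM, at -0.84 ± 0.17 (adjusted p = 0.00249). Both had no overlap between the doses.

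Epha2 and Efnb1 were the larger of the 3 rises from 0.2 to 2.0 µM, the other being Unc50. Epha2 read 7.93, 7.64 and 18.2 at 0.2 µM, all below its vector libraries at 2.0 µM, a log2 difference of 1.98 ± 0.40 (adjusted p = 0.00239). Efnb1 read 916, 912 and 1008 at 0.2 µM, near its DMSO libraries, and the difference to 2.0 µM was 0.39 ± 0.07 (adjusted p = 0.00141). All 3 Slits, both netrin-Gs and 5 of 10 Eph receptors were lower at 2.0 than at 0.2 µM.

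In DMSO alone, 2 members were higher and 5 lower in A53T than in vector (limma), beside 5.85% and 8.19% of all genes, or 7 of 58 called beside 14%. The median log2 difference was -0.03 over members and 0.01 over all genes, and groups did not overlap for 39 members, beside 60.4%. With quantile normalization the split was 1 higher and 7 lower, and Sema4g was not called (adjusted p = 0.0504). With only these groups in the fit 13 were called. The count was 2 without A53T in DMSO replicate 1, 1 without its unnumbered library, and 17 without the 3 libraries that stood apart, none of which is in these groups, though the spread estimate includes them.

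Ntng1 read 297, 274 and 304 in vector in DMSO and 201 and 189 in A53T in DMSO. Slit2 read 413 and 402 in A53T in DMSO and Slit3 520 and 578, all below the vector libraries given above. None of these 3 overlapped, with log2 differences of -0.58 ± 0.11, -0.50 ± 0.12 and -0.45 ± 0.11 (adjusted p = 0.00573, 0.0148 and 0.0131). Ephb6 was lower by 0.39 ± 0.08 and Sema4a by 0.38 ± 0.08 on the log2 scale, again with no overlap. The 5 members lower in A53T in DMSO were all among the 16 that fell at 2.0 µM in both genotypes; the comparisons share control libraries, so this is a list of names and no further support.

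Efnb1 and Sema4g were the members higher in A53T in DMSO. Efnb1 read 1166 and 1156 in A53T, between its vector libraries in DMSO and those at 2.0 µM, and differed by 0.37 ± 0.08 (adjusted p = 0.0103). Sema4g read 447 and 412 in A53T and differed by 0.33 ± 0.09 (adjusted p = 0.0292). Both exceeded every vector library in DMSO. Without A53T in DMSO replicate 1 or its unnumbered library, the adjusted p was 0.0916 and 0.0751 for Efnb1, 0.252 and 0.0873 for Sema4g, 0.0573 and 0.0922 for Ephb6, and 0.0965 and 0.112 for Slit2. It was 0.0687 for Ntng1 without the unnumbered library and 0.155 for Slit3 without replicate 1. Leaving out 1 vector library in DMSO gave 0.0558 for Slit2 without replicate 1, and 0.0871 and 0.0926 for Sema4g without replicates 2 and 3.

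In A53T at 0.2 µM, counted as 1 sample, 34 members were higher and 4 lower than in A53T in DMSO (limma), beside 33.6% and 34.2% of all genes. In all, 38 of 58 were called, beside 67.8% of all genes, so the share called was near the background, and the calls lay mostly on the higher side. The median log2 fold change was 0.737 over members and 0.00 over all genes; with quantile normalization these were 0.507 and -0.203, with 29 members higher and 7 lower. Libraries of the groups did not overlap for 52 members, beside 89.4%. This single sample is taken to vary as samples of the other groups do. Without the 3 libraries that stood apart, 43 members were called. Glutamatergic markers summed to 32880 to 33080 in A53T at 0.2 µM, above every other group, and astrocyte markers to 67080 to 67460. The 13 general neuron genes measured of 14 went the other way, from 88080 to 90240 in A53T in DMSO to 80240 to 81180 at 0.2 µM (4 rose and 5 fell), as did the summed GABAergic genes, from 20710 to 21010 to 17320 to 17620; the lists' part in the result was not tested.

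A pair of netrin receptors had the largest rises in A53T at 0.2 µM. Unc5d, an Unc5 receptor of cortical neurons, read 39.0 and 42.6 in A53T in DMSO and 620, 598 and 621 at 0.2 µM. Dcc read 516, 500 and 509 at 0.2 µM beside 44.5 and 51.1 in DMSO. Both stood many times above every library of the other 5 groups, with log2 fold changes of 3.88 ± 0.62 and 3.39 ± 0.35 (adjusted p = 2.24e-04 and 1.52e-05). Both neuropilins, both Robos, all 3 Slits, 4 of 5 plexins, 5 of 7 class 3 semaphorins and 6 of 10 Eph receptors also rose. The 4 that fell were Sema4a, Sema6b, Efnb3 and Unc50. Sema4a read 955 and 911 in DMSO and 634, 663 and 648 at 0.2 µM, a log2 fold change of -0.52 ± 0.10 (adjusted p = 7.24e-04). Unc50 read 855, 796 and 769 at 0.2 µM, below both controls, at -0.39 ± 0.12 (adjusted p = 0.0107, and 0.0514 without A53T in DMSO replicate 1).

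Other genes of the guidance pathways, a list of co-receptors, further cues and intracellular partners of which 76 of 85 were measured, were read the same way. At 2.0 µM in vector 13 rose and 19 fell, beside 47.2% of all genes called, and in A53T 2 rose and 25 fell, beside 37.6%; the medians were -0.07 and -0.30 on the log2 scale. In A53T at 0.2 µM 45 rose and 13 fell, beside 67.8%. Counted in either direction, the shares of the list called were near the background in all 3 comparisons. By direction over all genes, 23.4% rose and 23.8% fell in vector at 2.0 µM, and 19.7% and 17.9% in A53T. In A53T at 0.2 µM these shares were 33.6% and 34.2%. The calls of the list in A53T thus lay mostly among the falls at 2.0 µM and the rises at 0.2 µM. By smallest p in vector, the rises were Srgap2 (0.69 ± 0.07) and Srgap1 (1.59 ± 0.23), which bind Robo receptors, and Vav2 (0.83 ± 0.10), an exchange factor downstream of Eph receptors. The falls were Chn1 (-1.03 ± 0.08), α-chimaerin, which acts downstream of Eph receptors, Mical2 (-1.33 ± 0.13), an actin oxidase of the family that binds plexins, and Dpysl4 (-0.76 ± 0.07), a collapsin response mediator. In A53T, Vav2 (0.32 ± 0.11) and Rgs3 (0.27 ± 0.10) were the 2 rises. The falls with the smallest p there were the chemokine Cxcl12 (-1.12 ± 0.12), its receptor Cxcr4 (-1.34 ± 0.14) and Chn1 (-0.81 ± 0.09).

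Markers of cell types moved with several of these groups. In vector at 0.2 µM the glutamatergic genes summed to 20920 to 25310 and the astrocyte genes to 75220 to 79550, so the first list overlapped with DMSO and the second did not. At 2.0 µM, 6 of 11 glutamatergic genes fell and 1 rose in vector, and 7 fell and 0 rose in A53T (limma). Of the 14 astrocyte genes, 11 fell and 2 rose in vector, and 5 fell and 4 rose in A53T. General neuron genes summed to 92970 to 98410 in vector in DMSO, 78030 to 85310 at 0.2 µM and 70130 to 74350 at 2.0 µM, and to 78460 to 92830 in A53T at 2.0 µM, where they overlapped with A53T in DMSO. Of the GABAergic genes 10 of 12 were measured, and their sums were 36370 to 39810 in vector in DMSO, 15440 to 17000 in vector at 2.0 µM, 20710 to 21010 in A53T in DMSO and 14210 to 16190 in A53T at 2.0 µM. Of the reactive astrocyte genes 10 of 12 were measured, with sums of 61970 to 65130, 22000 to 25740, 57790 to 61070 and 11420 to 13000 in the same groups and order. The measured microglial gene read 151 to 191 in vector in DMSO and 616 to 667 at 2.0 µM, and 299 to 307 in A53T in DMSO and 646 to 754 at 2.0 µM. No gene of these lists was at 0 in any library, and their part in the results for the members was not tested.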

How the data were processed

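RNA from rat cortical cultures was sequenced in 17 libraries after RNeasy extraction and a stranded TruSeq mRNA preparation, per the labels' protocols. The submitters' processing notes name FastQC, TopHat, HTSeq and the build rn6, with versions and normalization not given in the sources used here. As for units, the signal in the deposited table is counts per gene, normalized by the authors before deposit. The tests did not treat it as reads, so no counting interval is given, and depth is unknown. Only the comparison of replicates with Poisson sampling took the values as counts. Columns were matched to sample titles. The 2 columns of A53T in DMSO carry the numbers 1 and 3 and the titles 1 and 2, so the second was used without a number.

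On log2(value + 1), limma 3.58.1 in R 4.3.3 (trend=TRUE) fitted 15 samples at once, with 6 group means, 9 residual degrees of freedom and 8 contrasts. P-values were adjusted by Benjamini-Hochberg over 11247 genes at a threshold of 0.05. The filter (mean of at least 1) removed 0 genes. Fold changes on this scale understate those of low genes. The fit was also run on simulated data with the same rule for spread in all groups. That does not show how it deals with libraries that stand apart. No label states that replicates are separate cultures; the p-values then reflect only how these samples varied, possibly for technical reasons. Values per library are given for the 4 largest rises and falls past the threshold without overlap (2 in the contrasts of dose, of genotype at 2.0 µM, of A53T at 0.2 µM and of interaction), and for their ligands or receptors. Members and lists were chosen with earlier results of these data known. All 58 members matched a RefSeq symbol. A check on 1 gene is not reported here. The alternatives were other pseudocounts, a minimum mean of 20, quantile normalization, all 17 libraries as separate samples, only the groups compared, a replicate block, single libraries left out and, added after seeing the data, the 3 libraries that stood apart left out and a block by column numbers.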

Additional observations from a re-analysis of the deposited data

Results flagged for a closer look

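For 4 members the effect of 2.0 µM FK506 differed between the genotypes by the interaction term of the limma fit. The change in A53T minus the change in vector was -2.07 on the log2 scale for Dcc, -2.41 for Epha2, 0.56 for Ephb6 and 0.62 for Sema4b. Dcc fell in A53T and did not pass the test in vector, Epha2 rose in vector and did not pass in A53T, Ephb6 fell in both and by less in A53T, and Sema4b rose in A53T and did not pass in vector. The calls of Epha2 and Sema4b were lost when certain single libraries were left out. Those of Dcc and Ephb6 were kept with each library left out in turn. None of the 4 calls was kept with the title numbers as a replicate block. That fit also lost the unnumbered library of A53T in DMSO.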

How the results depend on the processing

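Of 652 values of 44 results for 25 named members under the alternatives, 568 kept their direction and side of the threshold, 84 kept their direction and lost the call, and 0 reversed. With only the compared groups in the fit, called members numbered 13 for A53T against vector in DMSO, 14 for 2.0 µM in A53T and 7 for A53T against vector at 2.0 µM. For the interaction, quantile normalization gave 7 and all 17 libraries as separate samples 9. Without the 3 libraries that stood apart, there were 17 for A53T against vector in DMSO, 26 for 0.2 µM and 33 for 2.0 against 0.2 µM in vector, and 20 for the interaction. The shares of all genes called under these alternatives are not given. Leaving out 1 library gave 1 to 7 members for A53T against vector in DMSO, 2 to 11 for 0.2 µM, 18 to 24 for 2.0 µM and 13 to 28 for 2.0 against 0.2 µM in vector, 27 to 39 for 0.2 µM and 13 to 32 for 2.0 µM in A53T, 10 to 24 for A53T against vector at 2.0 µM, and 2 to 13 for the interaction. The minimum mean of 20 left out members with low values. Among those named, Plxnb3 in A53T and Sema3a in vector had few normalized counts and wide errors at 2.0 µM (0.52 and 0.54). Errors did not follow counts alone. Nrp2, with more counts, had 0.54 in A53T at 2.0 µM, and Sema3g, with few, had 0.36 in vector at 2.0 µM. Unc5d in A53T at 0.2 µM had 0.62. The read depth behind these values is unknown.

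The replicate numbers were not taken to pair the samples: deviations of same-numbered libraries correlated from -0.51 to 0.669 over 22 pairs, 9 of them above 0.1, and 4 of 13 libraries correlated best with their own number. All 3 pairs between vector at 0.2 µM and A53T at 2.0 µM were above 0.1 (0.217 to 0.669), and these groups are compared nowhere here. With the title numbers as a replicate block, the unnumbered library of A53T in DMSO was left out, so that group had 1 sample. A53T at 0.2 µM was not in that fit. Limma then called fewer members for A53T against vector in DMSO, for 2.0 µM in A53T and for the interaction. For the interaction no call was kept. Leaving that library out without a block also lowered these counts, so the losses cannot be assigned to the block alone. No other count moved by over 1.5 times under the block, and none did with the column numbers as the block.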
